A study of Mus musculus with 17 samples.

Results

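Irradiated senescent and untreated non-senescent primary tubular epithelial cells (PTEC) were compared across all genes, using the 8 PTEC cultures among the 17 samples of the series. All cultures came from wild-type (WT) C57BL/6Rj mice, as the labels spell the strain, which the methods write as C57BL/6JRj. The kidneys were digested with collagenase, sieved as tubular fragments and grown in a renal epithelial medium, REGM2. The 4 non-senescent cultures carry the label day 6 and no treatment, and the 4 senescent cultures carry the label day 16 and γ-irradiation with 10 Gy, so that irradiation and time in culture cannot be told apart in any result given here. A treatment text attached to all 8 PTEC samples mentions irradiation, and the day 6 cultures were taken as not irradiated from their titles and their own treatment label. The sources do not say how many mice were used or whether cultures were pooled, and p-values therefore measure the spread between these cultures. Cultures of the 2 groups share the replicate numbers 1 to 4, and values are listed in that order, non-senescent before senescent. Within each group replicates 1 and 2 had the most similar counts. Their chi-square per gene was 19.7 in the non-senescent group, against 84.6 to 193 for the other combinations of its cultures. In the senescent group it was 17.7, against 34.2 to 104. Whether these replicates share a mouse is not given in the sources, and n = 4 counts cultures, not mice.

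Cellular senescence is a lasting exit from the cell cycle that follows damage such as DNA breaks. The tumour suppressor p53 and the CDK inhibitors p21 and p16 hold the cycle in arrest through the pocket proteins, which keep genes of DNA synthesis and mitosis silent. Senescent cells are also known for a loss of nuclear lamin B1, for resistance to apoptosis, and for the secretion of cytokines, growth factors, proteases and matrix proteins. In the kidney, senescent tubular cells accumulate with age and after injury.

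The number of reads counted per culture ran from 26963442 to 35409144. From 21598 to 22398 genes had at least 1 count in the non-senescent cultures and from 23260 to 24413 in the senescent cultures. Levels are given as CPM, counts relative to the library size after scaling by edgeR's TMM method, and CPM are compared between cultures, not between genes. Of 15434 genes that passed a filter on low counts, a gene was called when its adjusted p was under 0.05 and its absolute log2 fold change above 0.5. This fit did not use the replicate numbers, and the replicate block named below is an alternative fit that does. Called genes made up 20.1% of the genes tested in the higher direction and 19.7% in the lower direction, and the median log2 fold change over all genes tested was -0.002. Groups did not overlap for 22.1% of the genes tested, with the senescent cultures above, and for 19.9%, with them below. The first principal component held 70.7% of the variance and separated the groups. The second held 12.6%, and on it replicate 3 of both groups stood apart, at 52.1 and 40.6 against -39.9 to 8.81 in the other cultures. Without both of these cultures, an alternative chosen after the data were seen, 3194 genes were higher and 2957 lower.

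The labels call these cells proximal tubular cells, and the defining markers of that segment were only in part present. Lrp2, which encodes the endocytic receptor megalin, was at 100.1, 105, 65.5 and 539 CPM in the non-senescent and at 318, 176, 117 and 297 CPM in the senescent cultures. The phosphate carrier Slc34a1 was at 0.461, 0.197, 13.5 and 22.4 CPM and then at 0.0322, 0.067, 0 and 0 CPM. The organic anion carrier Slc22a6 did not exceed 0.332 CPM in any culture. Megalin was thus present throughout, and the phosphate carrier reached more than 1 CPM in non-senescent replicates 3 and 4 alone.

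The plot of called shares shows 45 gene lists, with 867 members, of which 788 were tested. Counts of called members below compare with shares of 20.1% higher and 19.7% lower over all genes tested. The median over the members lay above 0 in all 4 same-numbered pairs for 17 lists, below 0 in all 4 pairs for 20 lists, and on both sides for 8.

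**Figure D1:**
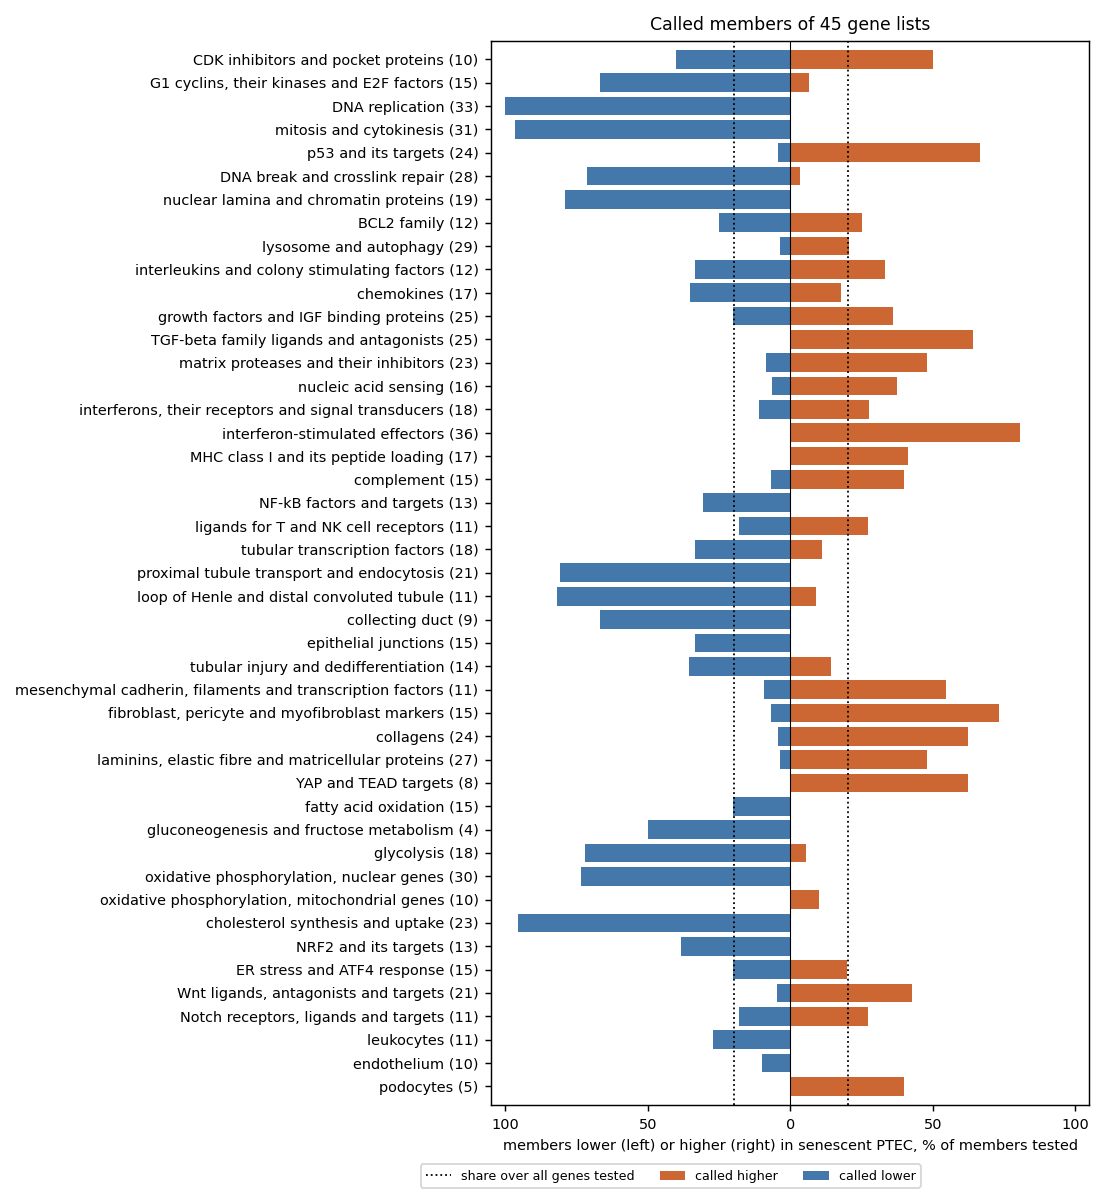
Share of the tested members of each gene list that were called lower (left) or higher (right) in senescent PTEC, in % of the members tested (their number in brackets). The dotted lines mark the shares over all genes tested, 19.7% lower and 20.1% higher; DNA replication reached 100% lower, and interferon-stimulated effectors 80.6% higher.

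The senescence markers rose in every pair. The CDK inhibitor gene Cdkn1a, which encodes p21, stood at 275, 256, 423 and 296 CPM in the non-senescent and at 697, 674, 927 and 791 CPM in the senescent cultures. Cdkn2a, which gives rise to p16 and p19ARF, stood at 28.4, 29.6, 45.3 and 26.2 CPM and then at 96.2, 82.7, 126 and 98.4 CPM. The groups of both genes were apart, and culture 3 was the highest of each group. Its neighbour Cdkn2b, which encodes p15, went from 28.1 ± 5.97 to 83.4 ± 21.6 CPM (mean ± SD, n = 4 each), a log2 fold change of 1.57 ± 0.21 (SE, edgeR adjusted p = 0.000389). Among the 10 CDK inhibitors and pocket proteins 5 were higher and 4 lower. The inhibitor of CDK4 and CDK6 Cdkn2c fell from 25.7 ± 1.78 to 5.41 ± 0.865 CPM, and the pocket protein Rbl1, known as p107, from 48.8 ± 18.4 to 13.9 ± 1.44 CPM.

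Of 15 G1 cyclins, kinases and E2F factors, 10 were lower and only the cyclin Ccnd2 was higher. Ccnd2 stood at 38.9, 37.6, 22 and 20.4 CPM in the non-senescent and at 1020.0, 895, 698 and 1001 CPM in the senescent cultures, a log2 fold change of 4.92 ± 0.28 (edgeR adjusted p = 3.22e-06). Its paralogue Ccnd1 was not called, at 1679 ± 201 against 1318 ± 384 CPM. The repressor E2f8 fell from 47.9 ± 21.6 to 1.21 ± 0.238 CPM and the activator E2f1 from 27.2 ± 5.92 to 12.7 ± 1.93 CPM. Without senescent replicate 3, a second member of this list was called higher.

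All 33 genes of DNA replication were lower, with a median of -2.84 (log2 fold change) and pair medians of -2.93, -2.86, -3.02 and -2.16. Mcm2, a subunit of the replicative helicase, was at 184, 176, 145 and 98.6 CPM in the non-senescent and at 30.6, 30.8, 32.3 and 36.0 CPM in the senescent cultures. Rrm2, a subunit of ribonucleotide reductase, was at 432, 417, 347 and 261 CPM and then at 15.6, 15.6, 14.4 and 15.6 CPM. The senescent cultures lay close together, whereas the non-senescent cultures spread, with replicate 4 the lowest for both genes. The replication factor Mcm10 had the largest fall of the list, with a log2 fold change of -5.08 ± 0.31 (edgeR adjusted p = 3.85e-06).

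Genes of mitosis and cytokinesis had the lowest median of the 45 lists, a log2 fold change of -4.76, with 30 of 31 lower. Mki67, which encodes the proliferation marker Ki-67, was at 369, 466, 156 and 349 CPM in the non-senescent and at 11, 9.04, 3.38 and 8.12 CPM in the senescent cultures. The mitotic kinase Cdk1 fell from 123 ± 33.0 to 8.41 ± 0.947 CPM, its cyclin Ccnb1 from 127 ± 33.0 to 3.75 ± 0.744 CPM, and the cyclin Ccna2 from 204 ± 54.2 to 4.47 ± 1.47 CPM. No called member overlapped between groups. The list's summed level was 4296, 4415, 2907 and 2696 CPM in the non-senescent and 247, 214, 173 and 219 CPM in the senescent cultures, and non-senescent replicates 3 and 4 stood below replicates 1 and 2.

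**Figure D2:**
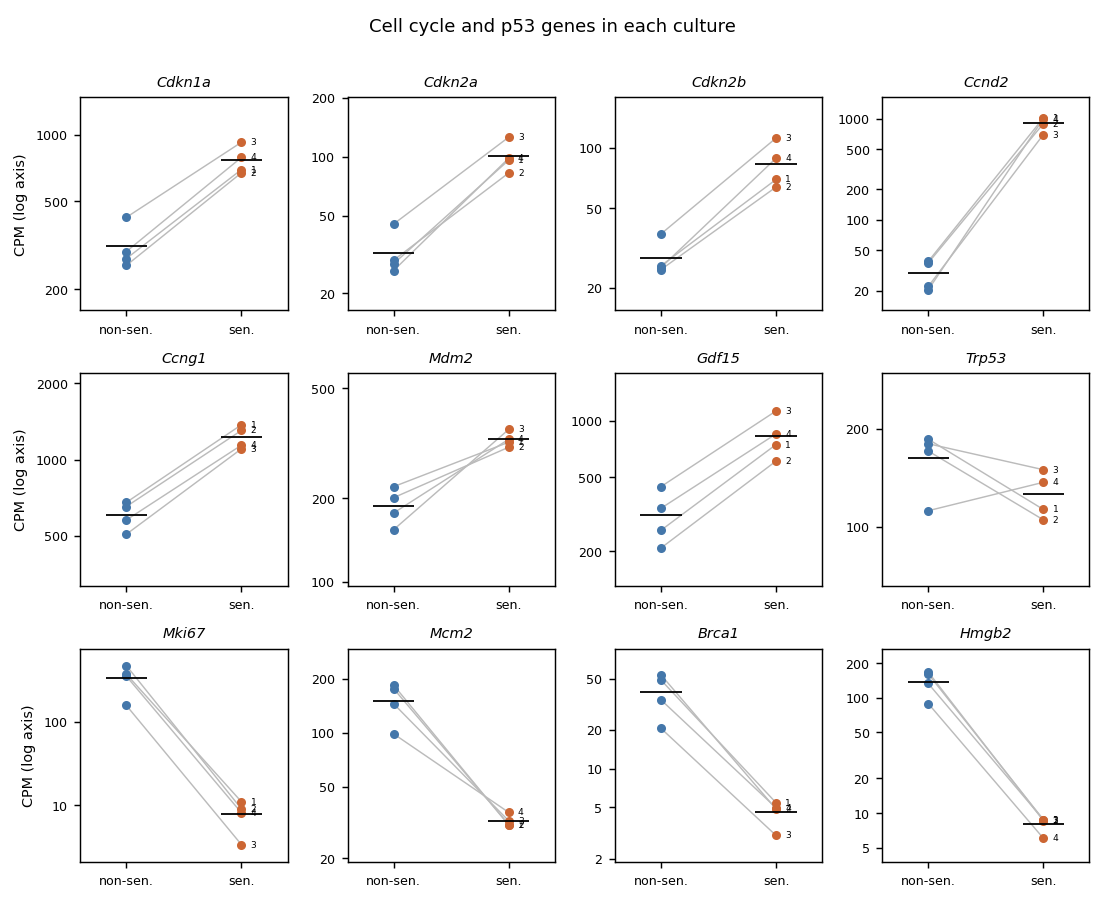
Level of 12 cell cycle, p53, repair and chromatin genes in each culture, in CPM on a log axis. Blue points are non-senescent and orange points senescent cultures, grey lines join same-numbered cultures (numbers at the right) and black bars are group means; the groups are apart for every gene but Trp53, at 112 to 186 against 105 to 149.8 CPM.

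Promoters of the lists that moved together were read for the sites that the cell cycle literature names. RefSeq promoters of GRCm38.p6, from 250 bases before to 50 bases after the start, were matched for 26 of 33 replication and 25 of 31 mitosis genes, and both strands were searched. An E2F site, TTTCCCGC or TTTGGCGC, lay in 38.5% of the replication promoters, in none of the mitosis promoters and in 1.8% of all 27025 genes in the table. The CHR element TTTGAA, which the DREAM complex uses in genes of the late cycle, lay in 72.0% of the mitosis, 15.4% of the replication and 20.2% of all promoters. The CCAAT box, to which NF-Y binds, lay in 72.0%, 65.4% and 41.1%. The 150 bases before the start are shown for 2 called members of each list whose stretch holds the site. These had the largest change among the members eligible for display, and not every chromosome was eligible. Capitals mark the E2F site of Cdc6 (chr11:98908001-98908150, plus strand) and Mcm5 (chr8:75109359-75109508, plus strand). They also mark the CHR element of Mki67 (chr7:135716380-135716529, minus strand) and Kif2c (chr4:117178773-117178922, minus strand). These matches are descriptions of letters and not of binding.
Cdc6: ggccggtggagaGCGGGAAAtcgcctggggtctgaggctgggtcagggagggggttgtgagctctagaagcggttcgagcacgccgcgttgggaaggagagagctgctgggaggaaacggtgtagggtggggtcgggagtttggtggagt
Mcm5: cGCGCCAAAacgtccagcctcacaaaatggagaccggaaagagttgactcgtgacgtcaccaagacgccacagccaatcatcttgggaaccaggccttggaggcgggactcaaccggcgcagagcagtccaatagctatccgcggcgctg
Mki67: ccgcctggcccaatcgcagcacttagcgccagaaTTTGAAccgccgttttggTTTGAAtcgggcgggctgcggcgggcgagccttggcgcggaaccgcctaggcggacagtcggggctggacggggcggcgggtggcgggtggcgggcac
Kif2c: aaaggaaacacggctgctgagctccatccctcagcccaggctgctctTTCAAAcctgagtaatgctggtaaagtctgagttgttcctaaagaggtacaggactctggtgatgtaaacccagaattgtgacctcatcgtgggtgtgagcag
The site of Cdc6 begins 138 bases before the start and that of Mcm5 149 bases before it, while the CHR elements of Mki67 lie between 116 and 93 bases and that of Kif2c between 103 and 98 bases before it.

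Targets of p53 rose, and the p53 gene itself was not called. Of 24 genes, 16 were higher and 1 lower, with a median of 0.81 (log2 fold change) and pair medians of 0.93, 0.85, 0.75 and 0.86. Trp53 was at 186, 171, 180.1 and 112 CPM in the non-senescent and at 113, 105, 149.8 and 137 CPM in the senescent cultures, and was called lower without non-senescent replicate 4. The p53 ubiquitin ligase Mdm2 was at 220.3, 201, 154 and 177 CPM and then at 319, 306, 355 and 327 CPM, so that the groups were apart. Ccng1, the cyclin G1 gene, rose from 604 ± 76.9 to 1228 ± 128 CPM, and the secreted stress factor Gdf15 from 313 ± 103 to 835 ± 221 CPM. The largest rise was that of Rprm (reprimo, an inhibitor of the G2 to M step), at 1.66, 2.95, 2.27 and 2.07 CPM against 31.9, 22.4, 27.6 and 25.2 CPM, a log2 fold change of 3.58 ± 0.22 (edgeR adjusted p = 3.93e-06). The death receptor gene Fas rose from 3.14 ± 0.772 to 10.7 ± 1.58 CPM. Plk3, a stress kinase, was the member that fell, from 43.4 ± 15.5 to 14.4 ± 3.66 CPM, and 2 members were lower with the replicate block, with non-senescent replicate 4 left out or with senescent replicate 3 left out.

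Repair of breaks and crosslinks and the proteins of chromatin fell with the cell cycle. In the repair list 20 of 28 genes were lower and 1 was higher, and in the list of lamina and chromatin proteins 15 of 19 were lower and none higher. Brca1, which acts in homologous recombination, was at 48.9, 53.6, 20.6 and 34.3 CPM in the non-senescent and at 5.44, 4.86, 3.03 and 4.97 CPM in the senescent cultures. The exonuclease gene Exo1 fell from 26.2 ± 7.38 to 1.19 ± 0.172 CPM. The damage mediator Trp53bp1, known as 53BP1, was the higher member, at 57.5 ± 12.2 against 88.3 ± 9.34 CPM (edgeR adjusted p = 0.0164), a call lost without non-senescent replicate 3 or senescent replicate 4. Lamin B1, encoded by Lmnb1, was at 167, 156, 117 and 86.7 CPM and then at 16.7, 14.3, 19.5 and 19.2 CPM. The chromatin proteins Hmgb2 and Hmga2 fell by 4.09 and by 1.51 on the log2 scale. In each of these 3 genes every senescent culture lay below every non-senescent culture.

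Of 12 tested members of the BCL2 family, which holds inhibitors and activators of apoptosis, 3 were higher and 3 lower, 25.0% each, near the 20.1% and 19.7% of all genes. The anti-apoptotic Bcl2 was at 24.5, 25.8, 14.5 and 23.5 CPM in the non-senescent and at 51.6, 58.3, 40.9 and 61.1 CPM in the senescent cultures, a log2 fold change of 1.26 ± 0.21 (edgeR adjusted p = 0.00104). Bcl2l2, which encodes the related protein BCL-W, rose from 31.2 ± 6.07 to 69.5 ± 8.94 CPM, whereas Bcl2l1, which encodes BCL-XL, was not called at 277 ± 67.1 against 335 ± 33.1 CPM. Bmf, a BH3-only activator of apoptosis, fell from 18 ± 5.64 to 9.61 ± 2.13 CPM. Of 29 lysosomal and autophagy genes 6 were higher, near the 20.1% of all genes. In the other direction 1 was lower, 3.45% against 19.7% of all genes, or 2 with the replicate block. Glb1, the gene behind senescence-associated β-galactosidase, was at 50.2, 53.2, 78.0 and 95.8 CPM and then at 92.6, 83.3, 96.3 and 97.1 CPM; the groups overlapped and it was not called, but was called higher without non-senescent replicate 4. The protease gene Ctsl rose from 894 ± 44.7 to 1777 ± 442 CPM.

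Of 17 chemokines tested 6 were lower, 35.3%, and 3 higher, against 19.7% and 20.1% of all genes. With the replicate block 9 were lower and 4 higher. Ccl7 was among the higher, at 1.44 ± 0.22 against 2.22 ± 0.238 CPM (edgeR adjusted p = 0.0447), a call lost whichever culture was left out. The inflammatory cytokine gene Il6 stayed at or below 0.449 CPM and Il1a at or below 0.215 CPM in every culture, and neither passed the filter. The neutrophil attractant Cxcl1 was at 47.3, 35.4, 47.4 and 47.7 CPM in the non-senescent and at 12.3, 10.1, 19.9 and 11.7 CPM in the senescent cultures. Cxcl2 was at 31.0, 19.3, 26.2 and 17.8 CPM and then at 1.19, 1.57, 3.11 and 1.24 CPM, a log2 fold change of -3.71 ± 0.35 (edgeR adjusted p = 4.97e-05). Both genes were lower in every pair, and the monocyte attractant Ccl2 also fell, from 20.8 ± 2.55 to 11.4 ± 0.511 CPM. Cxcl10, which is also an interferon target, was at 10.5, 10.8, 11.1 and 8.53 CPM and then at 5.98, 2.01, 8.21 and 4.91 CPM, and was not called (edgeR adjusted p = 0.0512). It was called lower with the replicate block (edgeR adjusted p = 0.0193), with RLE scaling, without a filter, with DESeq2, without senescent replicate 3 and without replicate 3 of both groups. Cxcl14 rose from 1.17 ± 0.209 to 5.43 ± 1.83 CPM.

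Among interleukins and colony stimulating factors 4 of 12 tested members were higher and 4 lower, 33.3% each against 20.1% and 19.7% of all genes. Csf1, the growth factor of macrophages, was at 190.3, 176, 177 and 178 CPM in the non-senescent and at 499, 333, 453 and 599.5 CPM in the senescent cultures. Il18 rose from 0.512 ± 0.3 to 2.08 ± 0.168 CPM. The receptor antagonist Il1rn fell from 26.1 ± 10.2 to 6.88 ± 1.48 CPM and Mif, the macrophage migration inhibitory factor, from 259 ± 97.8 to 106 ± 32.1 CPM. In the list of NF-kB factors and targets none of 13 genes was higher, against 20.1% of all genes, and 4 were lower, 30.8% against 19.7%. Without non-senescent replicate 4 or senescent replicate 2, 1 was higher. The co-activator Bcl3 fell from 38.0 ± 6.36 to 13.7 ± 2.18 CPM and the adaptor Traf1 from 4.79 ± 1.46 to 1.06 ± 0.239 CPM. The feedback inhibitor Nfkbia and the adhesion receptor Vcam1 were not called.

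Of 25 tested growth factors and IGF binding proteins 9 were higher, 36.0%, and 5 lower, the latter close to the 19.7% of all genes. Igfbp2, which binds insulin-like growth factors, was at 2.92, 5.28, 5.8 and 12.2 CPM in the non-senescent and at 367, 159.8, 224 and 769 CPM in the senescent cultures, 57.9-fold higher on average (log2 fold change 5.86 ± 0.64, edgeR adjusted p = 0.000111; log2 fold change 5.26 without senescent replicate 4, its highest culture). Igfbp7 rose from 614 ± 64.5 to 1648 ± 124 CPM and Fgf2 from 1.53 ± 0.654 to 5.63 ± 1.59 CPM. Igfbp4 fell from 43.3 ± 30 to 5.75 ± 1.76 CPM and the EGF receptor ligand Areg from 5.74 ± 2.73 to 1.85 ± 0.769 CPM, while Igfbp3 was not called. Without senescent replicate 1 or 2, 3 members were lower.

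In the TGF-beta list 16 of 25 tested genes were higher and none lower, with a median log2 fold change of 1.27. The ligand Tgfb2 was at 17.0, 24.7, 15.9 and 36.2 CPM in the non-senescent and at 56.9, 49.4, 42.5 and 59.3 CPM in the senescent cultures. Ltbp2, a latent TGF-beta binding protein of the microfibril, was at 16.4, 20.5, 20.9 and 63.1 CPM and then at 675, 381, 301 and 973 CPM. Gdf6, a ligand of the BMP branch, had at most 0.0392 CPM in the non-senescent and 7.24, 3.42, 5.35 and 8.67 CPM in the senescent cultures. For each of the 3 ligand and binding genes every senescent culture exceeded every non-senescent culture. The activin subunit Inhba was not called, at 54.2 ± 26.5 against 74.6 ± 19.3 CPM.

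Of 23 tested proteases and inhibitors 11 were higher and 2 lower. The gelatinase Mmp2 was at 16.6, 15.3, 7.29 and 11.3 CPM in the non-senescent and at 156, 177, 89.7 and 130.5 CPM in the senescent cultures. The serine protease inhibitor Serpine2 was at 14.2, 20, 17.1 and 17.9 CPM and then at 206, 220.2, 235 and 148 CPM, a log2 fold change of 3.55 ± 0.19 (edgeR adjusted p = 2.99e-06). The metalloproteinase inhibitor Timp1 fell from 58.5 ± 12.9 to 31.9 ± 4.49 CPM. The macrophage elastase Mmp12 was lower at 10.0 ± 8.56 against 1.97 ± 2.16 CPM, with non-senescent replicate 2 the highest at 22.8 CPM, and this call was lost without that culture or without senescent replicate 1, 3 or 4.

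**Figure D3:**
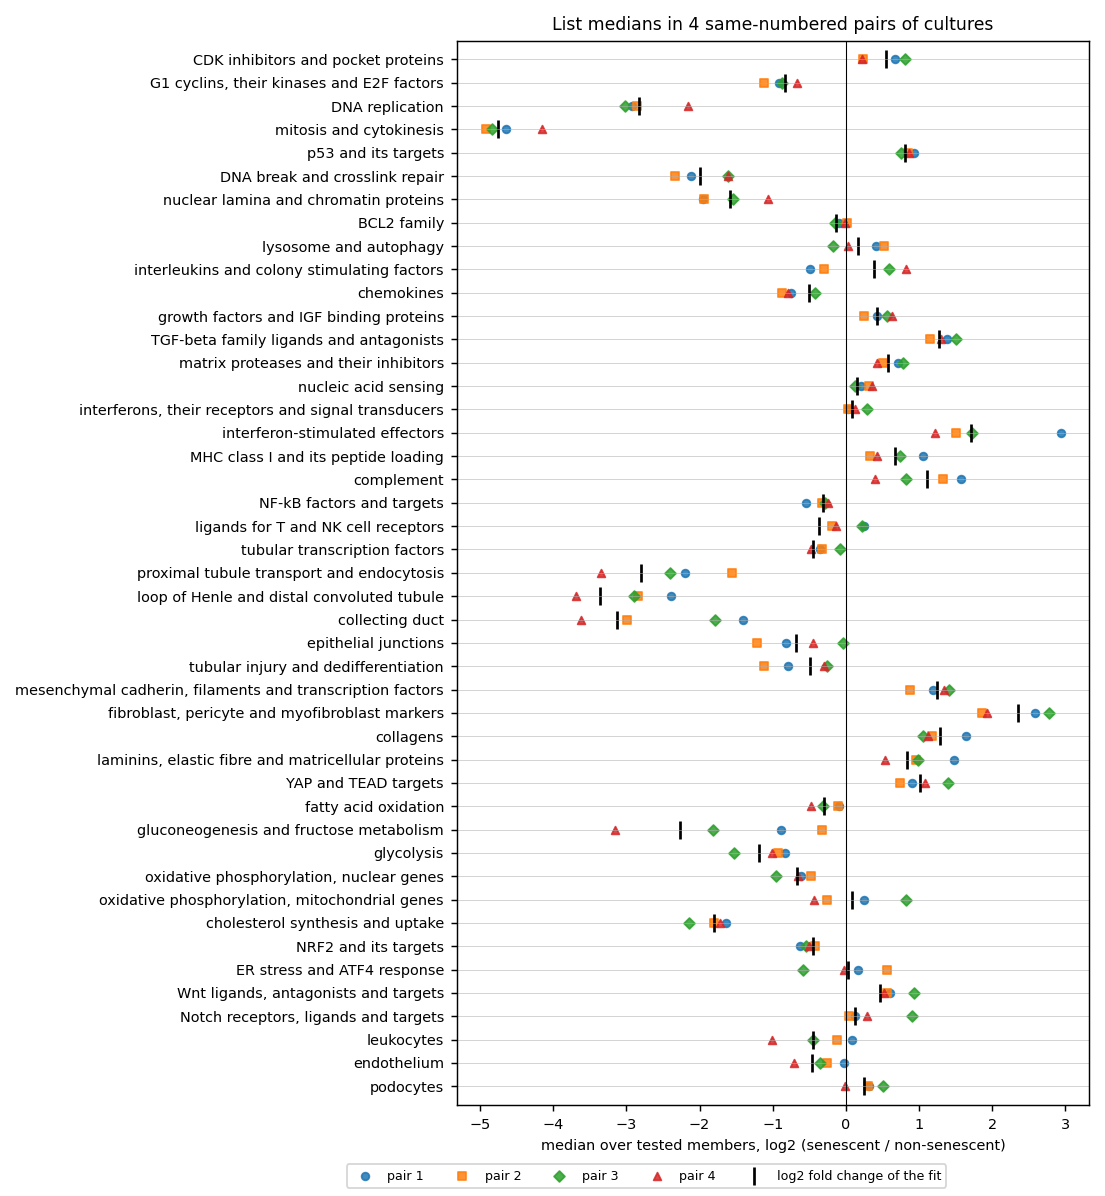
Median over the tested members of each gene list of the log2 ratio of senescent to non-senescent PTEC, for each of the 4 same-numbered pairs (coloured symbols), with the median of the fitted log2 fold changes (black bar). Mitosis lies between -4.93 and -4.16 in all 4 pairs, whereas interferon-stimulated effectors spread from 1.22 in pair 4 to 2.94 in pair 1.

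Interferon-stimulated effectors rose, with 29 of 36 tested called higher, and the interferon genes themselves were at or near 0. Interferons act through receptors, the kinases JAK1 and TYK2 and transcription factors such as IRF9, and their target genes restrict viruses and feed antigen presentation. Ifnb1 had no count in any culture, which with a limit of 3 counts per culture allows up to 0.118 CPM, and 10 of the 28 members of the list of interferons, receptors and transducers did not pass the filter. Of the 18 tested, 5 were higher and 2 lower, 27.8% and 11.1%, against 20.1% and 19.7% of all genes. Irf7, the factor that amplifies the response, was at 3.84, 12.0, 9.96 and 9.45 CPM in the non-senescent and at 83.8, 37.3, 45.3 and 24.9 CPM in the senescent cultures. Usp18, a feedback inhibitor of the receptor, was at 1.23, 4.89, 2.67 and 2.55 CPM and then at 57.1, 23.1, 31.7 and 22.8 CPM. For both genes replicate 1 was the lowest non-senescent and the highest senescent culture. Irf8 and Socs3 fell by 1.33 and by 1.11 on the log2 scale.

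Of 36 tested interferon-stimulated effectors 29 were higher and none lower, with a median of 1.71 (log2 fold change) and pair medians of 2.94, 1.5, 1.73 and 1.22. The ubiquitin-like Isg15 was at 1.78, 4.53, 5.18 and 3.95 CPM in the non-senescent and at 120.4, 43.1, 67.2 and 44.4 CPM in the senescent cultures. Ifit1, which binds foreign RNA, was at 0.984, 2.33, 1.45 and 3.88 CPM and then at 99.4, 32.3, 39.2 and 32.2 CPM, 23.5-fold higher on average (log2 fold change 4.56 ± 0.54, edgeR adjusted p = 0.000171). The GTPase Gbp2 rose from 6.36 ± 1.85 to 34.6 ± 16.9 CPM. The summed level of the list was 458, 609.7, 710.1 and 705 CPM and then 2307, 1437, 1660.0 and 1386 CPM, so that the groups were apart and culture 1 had both the lowest and the highest value. Between 24 and 31 members were higher with a culture left out, 1 was lower with the replicate block, and 1 was lower without non-senescent replicate 1 or 4 or senescent replicate 1.

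The interferon-stimulated response element, searched as GAAANNGAAA on both strands, lay in 17 of 29 matched promoters of this list, 58.6%, against 3.99% of all genes in the table. The stretches before the start of Ifit1 (chr19:34640739-34640888, plus strand) and Isg15 (chr4:156200819-156200968, minus strand) are shown with the element in capitals, in the same build. Among the called members eligible for display whose stretch holds it, these 2 had the largest change, and again not every chromosome was eligible.
Ifit1: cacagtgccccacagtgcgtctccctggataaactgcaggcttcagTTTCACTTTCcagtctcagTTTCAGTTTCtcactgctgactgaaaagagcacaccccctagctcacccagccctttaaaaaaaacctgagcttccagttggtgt
Isg15: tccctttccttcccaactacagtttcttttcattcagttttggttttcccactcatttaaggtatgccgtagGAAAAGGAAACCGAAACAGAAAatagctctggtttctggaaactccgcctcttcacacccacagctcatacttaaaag
The elements of Ifit1 lie between 104 and 76 bases before the start and those of Isg15, which overlap each other, between 78 and 57 bases before it.

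**Figure D4:**
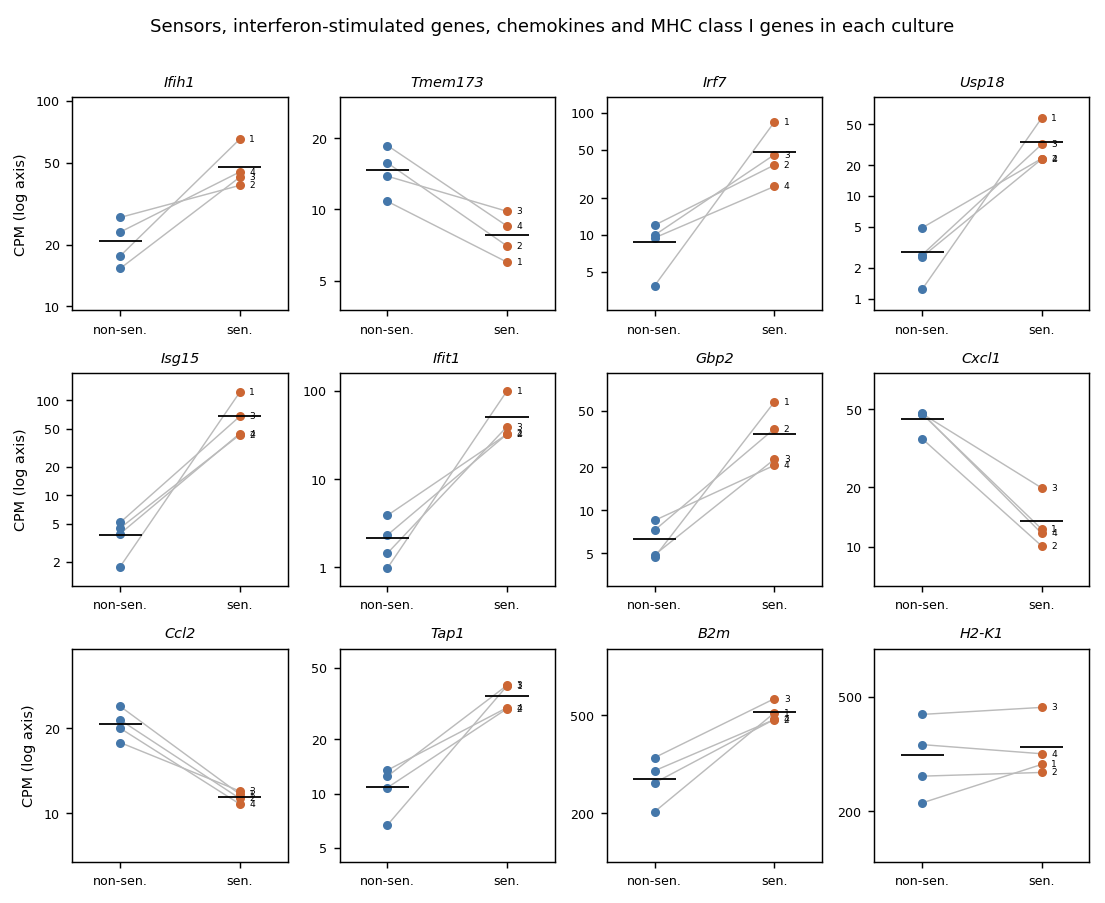
Level of 12 genes of nucleic acid sensing, interferon signalling, chemokines and MHC class I in each culture, in CPM on a log axis, drawn with colours, lines and bars as in the plot of cell cycle genes. Isg15 and Ifit1 rise in all 4 pairs and most in pair 1, Cxcl1 and Ccl2 fall, and the groups overlap for H2-K1, at 214 to 434 against 273 to 459 CPM.

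Of 16 tested genes of nucleic acid sensing 6 were higher, 37.5%, and 1 lower, 6.25%, against 20.1% and 19.7% of all genes. The RNA sensor gene Ifih1, which encodes MDA5, was at 17.6, 27.1, 15.3 and 23 CPM in the non-senescent and at 65.1, 38.8, 42.5 and 45.1 CPM in the senescent cultures, and Dhx58, which encodes its partner LGP2, rose from 1.8 ± 0.737 to 7.75 ± 3.58 CPM. Tmem173, which encodes the DNA sensing adaptor STING, was at 10.8, 15.7, 13.8 and 18.6 CPM and then at 5.98, 7.0, 9.81 and 8.5 CPM, a log2 fold change of -0.91 ± 0.22 (edgeR adjusted p = 0.00854). Ifih1 and Dhx58 were higher and Tmem173 lower in every pair. The DNA sensor Cgas was at 2.77 ± 0.974 against 1.61 ± 0.394 CPM and was called lower only with the replicate block (edgeR adjusted p = 0.0345 against 0.0654) or without non-senescent replicate 3.

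Antigen presentation through MHC class I rose in 7 of 17 genes and fell in none, with 1 lower under the replicate block or without non-senescent replicate 4. The peptide transporter Tap1 was at 6.7, 10.8, 12.5 and 13.5 CPM in the non-senescent and at 39.6, 29.6, 39.9 and 30 CPM in the senescent cultures. B2m, the light chain, rose from 276 ± 56.8 to 515 ± 48.9 CPM, and the transactivator Nlrc5 from 2.38 ± 1.3 to 7.6 ± 1.49 CPM. The classical heavy chain H2-K1 was not called, at 314 ± 96.1 against 335 ± 84.7 CPM. Of 11 ligands for T and NK cell receptors 3 were higher and 2 lower, 27.3% and 18.2%, near the 20.1% and 19.7% of all genes, with 1 lower without non-senescent replicate 3 or senescent replicate 1. Cd274, which encodes PD-L1, rose from 1.47 ± 0.473 to 5.36 ± 1.4 CPM, the costimulatory Cd80 from 0.306 ± 0.0689 to 1.78 ± 0.375 CPM and H60b, a ligand of the NK receptor NKG2D, from 0.892 ± 0.141 to 4.45 ± 1.27 CPM. Cd47, which signals to phagocytes, was not called, but was called lower without senescent replicate 2.

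Of 15 tested complement genes 6 were higher, 40.0%, and 1 was lower, 6.67%, against 20.1% and 19.7% of all genes. C1s1, a protease of the classical pathway, was at 0.461, 0.722, 0.196 and 0.96 CPM in the non-senescent and at 21.7, 25.5, 12.8 and 16.1 CPM in the senescent cultures, a log2 fold change of 5.01 ± 0.42 (edgeR adjusted p = 2.51e-05). C4b of the same pathway rose from 0.326 ± 0.251 to 2.3 ± 1.01 CPM. Cfb of the alternative pathway was at 0.83, 0.985, 1.61 and 3.17 CPM and then at 0.161, 0.167, 0.135 and 0.104 CPM, near the limit of 3 counts. The central component C3 was not called and its groups overlapped, at 313, 305, 217 and 702 CPM and 363, 537, 112 and 104 CPM, with opposite directions between pairs 1 and 2 and pairs 3 and 4.

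Segment-specific tubular genes fell. In the proximal tubule list 17 of 21 tested members were lower and none higher, with a median of -2.80 (log2 fold change), and 9 of its 30 members did not pass the filter. Pdzk1, a scaffold of the brush border, was at 24.7, 16.0, 109 and 123 CPM in the non-senescent and at 0.901, 0.569, 1.4 and 0.864 CPM in the senescent cultures, a log2 fold change of -6.17 ± 0.75 (edgeR adjusted p = 0.000211). Slc3a1, a subunit of the cystine carrier, was at 3.26, 3.02, 30.2 and 69.2 CPM and then at 0.643, 0.603, 0.594 and 0.587 CPM. The non-senescent cultures themselves differed, with replicates 3 and 4 well above replicates 1 and 2. The glucose carrier Slc5a2 was at 0.492, 0.197, 2.35 and 3.43 CPM and then at 0.193, 0.402, 0.324 and 0.276 CPM, so that the groups overlapped, and its call (edgeR adjusted p = 0.0308) was lost without non-senescent replicate 3 or 4 or any senescent culture. Lrp2 and the water channel Aqp1 were not called, and without non-senescent replicate 4, the highest culture, Lrp2 was called higher.

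The list summed to 843, 764, 1622 and 3267 CPM in the non-senescent and to 677, 489.7, 594 and 798 CPM in the senescent cultures. These groups overlapped, since non-senescent replicate 2 lay below senescent replicate 4. In bulk RNA, fewer cells of a type and less RNA per cell cannot be told apart. Fbp1 and Pck1, genes of gluconeogenesis, which in the kidney belongs to the proximal tubule, were low, and replicates 3 and 4 again stood highest in the non-senescent group. Fbp1, the fructose bisphosphatase, was at 0.246, 0.131, 3.37 and 5.72 CPM in the non-senescent and at 0.0643, 0.067, 0.216 and 0.0345 CPM in the senescent cultures, and did not pass the filter. Pck1, which makes phosphoenolpyruvate, was at 0.338, 0.197, 1.49 and 4.91 CPM and then at 0.0643, 0.067, 0.459 and 0.311 CPM. It was lower (edgeR adjusted p = 0.0428) with groups that overlapped, a call that held in the fits without non-senescent replicate 1 or 2 or senescent replicate 3 and was lost in the others.

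Markers of other segments were present at low levels in the non-senescent cultures and fell as well. In the loop of Henle and distal convoluted tubule 9 of 11 tested genes were lower and 1 was higher, and in the collecting duct 6 of 9 were lower and none higher. Slc12a1, the sodium carrier of the thick ascending limb, was at 4.61, 3.94, 5.22 and 17.6 CPM in the non-senescent and at 0.257, 0.435, 0.297 and 0.138 CPM in the senescent cultures. The vasopressin receptor Avpr2 of the collecting duct was at 3.44, 3.25, 10.4 and 20.2 CPM and then at 0.0965, 0.067, 0.324 and 0.345 CPM. Replicate 4 was the highest non-senescent culture for both genes. Aqp2, which defines principal cells, was at 0.96 CPM in non-senescent replicate 4 and at most 0.0784 CPM elsewhere. The magnesium channel Trpm6 was the higher member, with groups that overlapped and a call (edgeR adjusted p = 0.0426) that was lost without non-senescent replicate 1, 3 or 4 or senescent replicate 1 or 2.

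Transcription factors of the tubule moved apart from one another. Hnf4a, which drives proximal tubule differentiation, was at 92.6, 81.3, 107 and 133 CPM in the non-senescent and at 12.1, 13.3, 14.8 and 12.1 CPM in the senescent cultures, a log2 fold change of -2.98 ± 0.18 (edgeR adjusted p = 3.62e-06). Pax8, a marker of the whole tubular epithelium, was not called at 249 ± 29.5 against 282 ± 44.2 CPM. Its relative Pax2 rose from 78.1 ± 13.0 to 124 ± 16.9 CPM. Unlike the carriers, Hnf4a and Pax8 differed little among non-senescent cultures. In total 6 of 18 factors, 33.3%, were lower and 2, 11.1%, higher, against 19.7% and 20.1% of all genes, and of the higher ones Sall1 was not called without non-senescent replicate 1 or senescent replicate 1, 2 or 4.

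Epithelial junction genes were lower in 5 of 15, 33.3%, and higher in none, against 19.7% and 20.1% of all genes. The adherens junction cadherin Cdh1 was at 269, 304, 219 and 418 CPM in the non-senescent and at 102, 76.7, 241 and 209.8 CPM in the senescent cultures. The adhesion molecule Epcam was at 146, 147, 181 and 162 CPM and then at 48.6, 40.9, 176 and 118 CPM. Both fell least, or not at all, in pair 3, and neither was called. With the replicate block 9 members of the list were lower, among them Cdh1 (edgeR adjusted p = 0.0261 against 0.0574) and Epcam (0.0349 against 0.178), and without senescent replicate 3 there were also 9. Cdh1 was also called with DESeq2, without non-senescent or senescent replicate 3 and without both, and Epcam without senescent replicate 3 and without both. The tight junction genes Cldn8 and Tjp3 fell by 2.71 and by 1.56 on the log2 scale, the former by 1.85 without non-senescent replicate 4.

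In the list of injury and dedifferentiation 5 of 14 genes, 35.7%, were lower and 2, 14.3%, higher, against 19.7% and 20.1% of all genes, and 3 were lower without non-senescent replicate 1 or 3 or senescent replicate 1, 2 or 4. Havcr1, which encodes the injury marker KIM-1, was at 2029, 1617, 2192 and 1965 CPM in the non-senescent and at 674, 726, 1131 and 1137 CPM in the senescent cultures. The keratin Krt20 fell from 372 ± 97.6 to 149 ± 48.9 CPM. Clu, the secreted chaperone clusterin, rose from 779 ± 212 to 1638 ± 429 CPM and the factor Sox4 from 276 ± 32.5 to 444 ± 85 CPM. Lcn2, Sox9 and Spp1 were not called, and Spp1 (osteopontin) was called higher without non-senescent replicate 4.

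Of 11 mesenchymal genes 6 were higher and 1 was lower. Fn1, which encodes fibronectin, was at 1509.9, 2174, 456 and 1454 CPM in the non-senescent and at 9662, 9201, 7329.7 and 10827 CPM in the senescent cultures, a log2 fold change of 2.73 ± 0.41 (edgeR adjusted p = 0.000662). N-cadherin, encoded by Cdh2, was at 264, 253, 161 and 272 CPM and then at 626, 464, 538 and 692 CPM. The factor Snai2 rose from 1.33 ± 0.696 to 5.88 ± 2.48 CPM. All 3 genes rose in every pair, with replicate 3 the lowest non-senescent culture for Fn1 and Cdh2. Vim, which encodes the filament protein vimentin, was not called at 2086, 2022, 2029.8 and 1213 CPM against 1754, 1559, 969 and 1229 CPM. The factor Twist2 was the member that fell, from 8.82 ± 3.37 to 4.02 ± 1.2 CPM (edgeR adjusted p = 0.0187), a call lost without non-senescent replicate 1 or 2 or senescent replicate 4, and without non-senescent replicate 4 there were 2 lower members.

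Of 24 collagens 15 were higher and 1 lower, with 2 lower under the replicate block, or without non-senescent or senescent replicate 3, and 3 lower without both of those cultures. The basement membrane chain Col4a1 was at 806, 834, 593 and 1131 CPM in the non-senescent and at 2494, 1876, 1194 and 2427 CPM in the senescent cultures. Col4a3 of the mature basement membrane rose from 174 ± 116 to 846 ± 359 CPM. The fibrillar Col11a1 was at 3.75, 3.84, 1.53 and 2.95 CPM and then at 65.9, 44.8, 29.0 and 62.2 CPM, a log2 fold change of 4.06 ± 0.36 (edgeR adjusted p = 3.02e-05). Every senescent culture exceeded every non-senescent culture for these 3 chains. Col1a1, the main chain of fibrotic scars, was at 5.44, 29.4, 45.3 and 48.8 CPM and then at 45.0, 107, 60.3 and 190.4 CPM. It was called only with the replicate block (edgeR adjusted p = 0.00763 against 0.0571) or without senescent replicate 1 or 3. Col3a1 was higher (edgeR adjusted p = 0.0385) with groups that overlapped, a call lost without non-senescent replicate 2 or 3 or senescent replicate 2 or 4.

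Of 27 laminins, elastic fibre and matricellular genes 13 were higher and 1 lower, with 3 lower under the replicate block or without senescent replicate 3, and 2 lower without non-senescent replicate 3 or without both. Tenascin C, encoded by Tnc, was at 292, 384, 75.7 and 284 CPM in the non-senescent and at 1798, 1718, 941 and 1726 CPM in the senescent cultures. The crosslinking enzyme Lox was at 81.4, 74.8, 31.4 and 53.9 CPM and then at 445, 364, 374 and 682 CPM. Thrombospondin 1, encoded by Thbs1, rose from 1493 ± 642 to 5021 ± 1589 CPM and Fbln5, which assembles elastic fibres, from 3.02 ± 0.942 to 24.1 ± 6.52 CPM. Targets of YAP and TEAD, which respond to cell stretch and a stiff matrix, were higher in 5 of 8 and lower in none. Ccn2 was at 1769, 1432, 1489 and 1217 CPM and then at 4676, 4272, 5451 and 5101 CPM, and Ankrd1 rose from 304 ± 58.1 to 1179 ± 209.7 CPM.

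Markers of fibroblasts, pericytes and myofibroblasts moved with these matrix genes, with 11 of 15 tested higher and 1 lower. The list summed to 391, 444, 280.2 and 354 CPM in the non-senescent and to 2647, 1615, 1225 and 2159 CPM in the senescent cultures. The smooth muscle actin gene Acta2 was at 64.0, 94.5, 49.9 and 33.7 CPM and then at 991, 537, 448 and 804 CPM, and Cnn1, which encodes calponin, rose from 3.65 ± 1.55 to 76 ± 33.1 CPM. These contractile genes were apart between groups. Pdgfra, which defines fibroblasts, was at 1.14, 1.61, 0.784 and 1.81 CPM and then at 1.58, 2.38, 1.84 and 2.73 CPM, and was called only with the replicate block (edgeR adjusted p = 0.0399 against 0.113). Pdgfrb of pericytes was higher at 3.86 ± 1.62 against 10.8 ± 5.31 CPM, with groups that overlapped and a call (edgeR adjusted p = 0.0215) that was lost without non-senescent replicate 1 or senescent replicate 2 or 4. The pericyte proteoglycan Cspg4 fell from 105 ± 52.7 to 43.9 ± 16.0 CPM, a call lost without senescent replicate 4. The part of fibroblasts or pericytes in the rise of matrix genes was not tested.

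**Figure D5:**
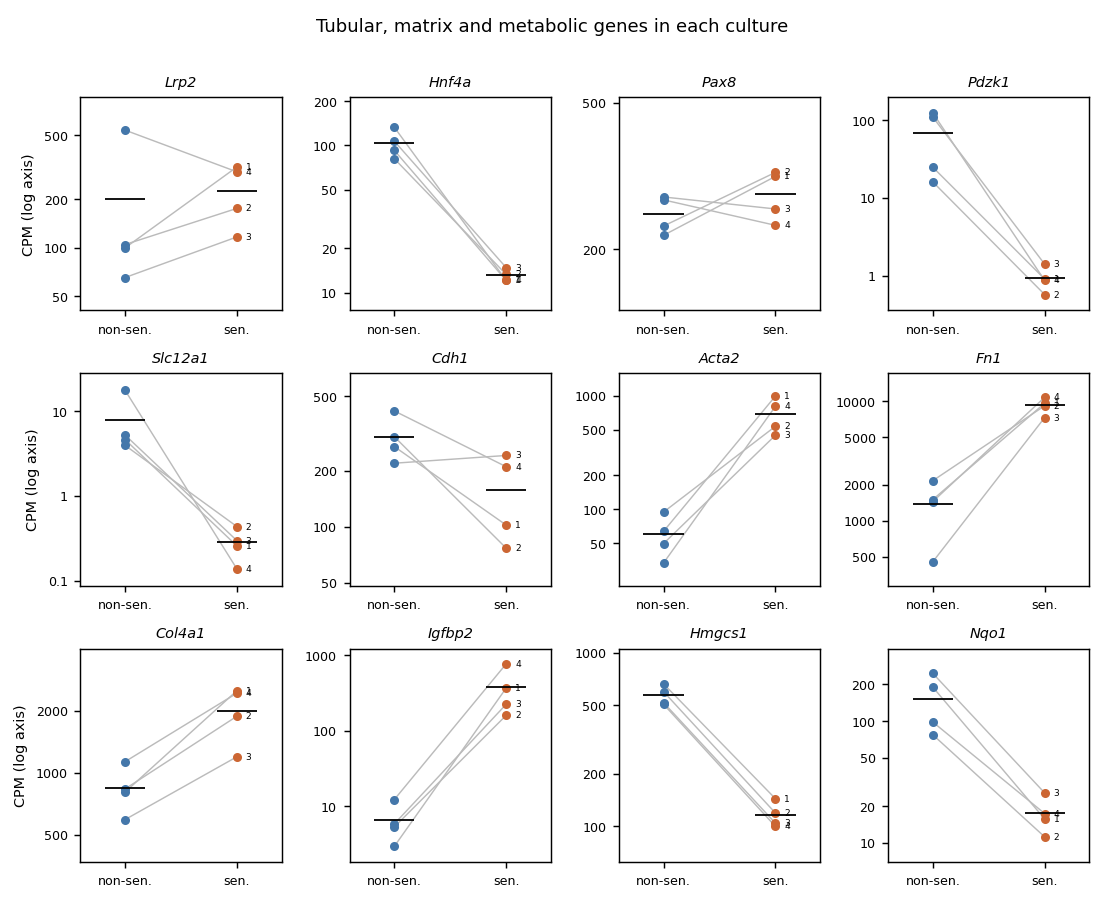
Level of 12 tubular, matrix, secreted and metabolic genes in each culture, in CPM on a log axis, drawn with colours, lines and bars as in the plot of cell cycle genes. Hnf4a, Pdzk1, Slc12a1, Hmgcs1 and Nqo1 fall and Acta2, Fn1, Col4a1 and Igfbp2 rise without overlap between groups, whereas Lrp2, Pax8 and Cdh1 overlap; Pdzk1 spreads from 16.0 to 123 CPM among the non-senescent cultures.

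Markers of leukocytes, endothelium and podocytes were checked for cells that tubular fragments may carry. Ptprc, the pan-leukocyte gene, was at 2.95, 4.43, 2.82 and 4.17 CPM in the non-senescent and at 1.58, 1.57, 2.38 and 1.93 CPM in the senescent cultures, a fall that was not called without senescent replicate 1. The summed level of the leukocyte list was 87.1, 135, 86.5 and 104 CPM and then 98.3, 233, 60 and 63.9 CPM. Of its 11 tested members 3 were lower, 27.3%, near the 19.7% of all genes, and none was higher, against 20.1%. In this list the replicate block gave 4 lower and 1 higher. The lysozyme gene Lyz2 was highest in senescent replicate 2, at 154 CPM against 24.5 to 54.9 CPM in the other cultures, and was called higher only with the block (edgeR adjusted p = 0.0271 against 0.173). The endothelial marker Pecam1 was not called and varied from 8.43 to 39.8 CPM, highest in replicate 2 of both groups. In the endothelial list 1 of 10 members, Kdr, was lower (edgeR adjusted p = 0.0221), a call lost without non-senescent replicate 1 or senescent replicate 4. With the replicate block 2 members were higher and 4 lower, and without non-senescent replicate 3 or senescent replicate 2 there were 2 and 3 lower. Of 5 tested podocyte genes 2 were higher and none lower. Nphs1, which encodes nephrin, was at 0.0615, 0, 0 and 0.332 CPM in the non-senescent and at 1.45, 1.57, 0.567 and 0.518 CPM in the senescent cultures (edgeR adjusted p = 0.00998). Synpo, which tubular cells also express, rose from 59.3 ± 16.3 to 257 ± 75.7 CPM. The part of these cells in the interferon, complement and chemokine results was not tested.

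Cholesterol synthesis was the metabolic list with the highest share of members called, 22 of 23 lower with a median of -1.81 (log2 fold change) and pair medians of -1.64, -1.81, -2.14 and -1.73. Hmgcs1, the synthase ahead of the rate-limiting step, was at 662, 597, 516 and 505 CPM in the non-senescent and at 144, 119, 104 and 99.6 CPM in the senescent cultures. Idi1, the isomerase that makes the activated isoprene unit, was at 97.4, 82.6, 42.2 and 45.5 CPM and then at 13.1, 10.4, 7.16 and 7.12 CPM, a log2 fold change of -2.82 ± 0.33 (edgeR adjusted p = 0.000166). Squalene epoxidase, encoded by Sqle, fell from 215 ± 8.79 to 69.1 ± 15.7 CPM. In each of these genes every senescent culture lay below every non-senescent culture.

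Of 18 glycolytic genes 13 were lower and 1 higher. Lactate dehydrogenase A, encoded by Ldha, was at 1068, 1169, 1846 and 1053 CPM in the non-senescent and at 292, 303, 334 and 280.4 CPM in the senescent cultures. The lactate exporter Slc16a3 was at 26.9, 54.7, 73.7 and 65.7 CPM and then at 6.08, 10.6, 6.59 and 8.5 CPM. Both lay lower in every pair, and Pkm and Eno1 fell by 1.19 and by 1.45 on the log2 scale, although reads of such abundant genes can be shared with processed pseudogenes. Hk2, which encodes the first enzyme of the path, was not called. The muscle-type phosphofructokinase Pfkm was the higher member, at 27.7 ± 5.07 against 45.9 ± 1.07 CPM.

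Nuclear genes of oxidative phosphorylation were lower in 22 of 30 with a median log2 fold change of -0.68, but in 14 without non-senescent replicate 3, in 12 without senescent replicate 1 and in 13 without senescent replicate 4. Ndufs1 of complex I was at 152, 142, 157 and 149.7 CPM in the non-senescent and at 99.3, 102, 98.4 and 102 CPM in the senescent cultures. Cyc1 of complex III fell 2.05-fold from a level of 205 ± 58.6 CPM. Of 10 tested mitochondrial genes 1 was higher and none lower, and mt-Nd1 and mt-Co1 were not called. The higher gene was mt-Nd3, at 1.32 ± 0.477 against 3.34 ± 1.49 CPM. Mitochondrial genes have near-identical copies in the nuclear genome, and how the counting split such reads is not given in the sources used here, so these values are uncertain. The share of reads on the mitochondrial genome ran from 0.695% to 2.04% over the cultures, with both extremes in non-senescent PTEC.

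Of 15 tested genes of fatty acid oxidation 3 were lower, close to the 19.7% of all genes, and none was higher, against 20.1%. Only 1 was lower without non-senescent replicate 4, without senescent replicate 1, 2 or 4, or without replicate 3 of both groups. Ppargc1a, the coactivator of mitochondrial biogenesis, was at 13.0, 13.0, 11.5 and 38.2 CPM in the non-senescent and at 4.15, 6.3, 3.19 and 4.42 CPM in the senescent cultures. In the NRF2 list 5 of 13 genes, 38.5%, were lower and none higher, against 19.7% and 20.1% of all genes. Nqo1, a quinone reductase, was at 189.6, 77.1, 246 and 98.1 CPM and then at 15.7, 11.2, 25.7 and 17.4 CPM, a log2 fold change of -3.12 ± 0.40 (edgeR adjusted p = 0.000296). The cystine importer Slc7a11 fell from 93.7 ± 29.3 to 30.8 ± 5.47 CPM, and Hmox1 was not called but was called lower without non-senescent replicate 4. Among conjugating enzymes, Gsta1 stood at 38.8, 13.6, 72.2 and 22 CPM and then at 0.257, 0.536, 0.783 and 0.242 CPM, a value that is uncertain since Gsta1 has near-identical copies. Of 15 genes of the unfolded protein and ATF4 responses 3 were higher and 3 lower, close to the 20.1% and 19.7% of all genes. The higher count was 1 without non-senescent replicate 1, 2 or 4 or senescent replicate 3, and 6 without non-senescent replicate 3 or without replicate 3 of both groups. Psat1 of serine synthesis fell from 212 ± 56.7 to 86.2 ± 8.64 CPM.

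Of 21 tested Wnt genes 9 were higher and 1 lower, with 2 lower under the replicate block or without senescent replicate 3. The target and feedback gene Axin2 was at 2.98, 4.17, 2.0 and 2.81 CPM in the non-senescent and at 7.82, 7.57, 8.02 and 8.36 CPM in the senescent cultures. Dkk3, a secreted protein of the Dickkopf family, was at 88.0, 96.0, 42.2 and 73.0 CPM and then at 751, 680.1, 340.4 and 549 CPM, a log2 fold change of 2.95 ± 0.32 (edgeR adjusted p = 0.000102). The groups of both genes were apart. The antagonist Sfrp1 was the member that fell, from 5.17 ± 1.06 to 1.49 ± 0.315 CPM. In the Notch list 3 of 11 genes were higher and 2 lower, 27.3% and 18.2%, near the 20.1% and 19.7% of all genes. The receptor Notch1 was lower at 63.4 ± 23.2 against 31.5 ± 6.96 CPM and the target Hey2 rose from 0.463 ± 0.0934 to 1.61 ± 0.555 CPM. The ligand Jag1 was higher (edgeR adjusted p = 0.0406), a call lost without non-senescent replicate 4 or senescent replicate 1, 2 or 4. Hes1, another target, was higher (edgeR adjusted p = 0.0316) with a log2 fold change of 0.52, which lay under the threshold of 0.5 with the replicate block. It was also not called without non-senescent replicate 1, 2 or 4 or senescent replicate 3 or 4, and 1 member of the list was higher without non-senescent or senescent replicate 4.

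The largest changes outside the lists were taken from called genes that averaged 10 CPM or more and whose groups were apart. AI593442 rose most, from 0.549 ± 0.425 to 43.2 ± 16.9 CPM. Slc5a10 fell most, from 1.01, 0.788, 23.4 and 61.3 CPM to 0.0965, 0, 0.054 and 0 CPM. Further rises included those of Npr3, Plcd4, Lmod1, Aplp1 and Cacna1g. Npr3, the clearance receptor of natriuretic peptides, was at 1.88, 2.89, 1.02 and 2.84 CPM in the non-senescent and at 87.2, 52.7, 33.0 and 76.1 CPM in the senescent cultures. Aplp1, a relative of the amyloid precursor gene, was at 7.87, 9.52, 6.82 and 8.82 CPM and then at 224, 213, 115 and 170.0 CPM, a log2 fold change of 4.45 ± 0.24 (edgeR adjusted p = 2.99e-06). The calcium channel Cacna1g rose from 3.5 ± 1.83 to 74.7 ± 22.6 CPM, and Lmod1, a leiomodin that nucleates actin filaments in smooth muscle, from 0.929 ± 0.489 to 20.7 ± 8.22 CPM. Pclaf, a partner of PCNA in DNA synthesis, fell from 122 ± 40.8 to 2.68 ± 0.692 CPM. In CPM, the largest gains beside fibronectin, Ccn2 and Thbs1 included those of the integrin Itgb1, the factor Tsc22d1, the taurine carrier Slc6a6, the scaffold Akap12, App and the actin regulator Cald1. The integrin subunit Itgb1 was at 2255, 2099, 1441 and 1949 CPM and then at 3840.5, 3133, 4136 and 5872 CPM. The call of Akap12 was lost without non-senescent replicate 1 or senescent replicate 1 or 2. The largest losses included Eef1a1, Ftl1, Actb, Hsp90ab1 and Rplp0, which serve translation, iron storage, the cytoskeleton and protein folding. Reads of such genes can be shared with pseudogenes. The call of Eef1a1 was lost without non-senescent replicate 1, 2 or 3 or senescent replicate 1, 2 or 4, and that of Hsp90ab1 without non-senescent replicate 1 or senescent replicate 1, 2 or 4.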

How the data were processed

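RNA of 8 PTEC cultures was analysed, and the 9 kidney samples were not used here. Per the labels and methods, poly(A) RNA was made into directional libraries. The authors deposited raw counts of reads per gene, without normalization, on GRCm38. The methods name the nf-core/rnaseq pipeline and an earlier GENCODE release than the M21 used here for symbols. Their detailed account is of a pool of 9 libraries, the number of kidney samples, so it may not hold for the PTEC cultures. The aligner, the counter and its strand setting are not given in the sources used here, so that overlapping genes may share reads. Of 53715 gene identifiers, 53620 were matched without their version to symbols of GENCODE release M21.

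The groups were compared in R 4.3.3 by edgeR 4.0.16 (TMM scaling, filterByExpr, robust quasi-likelihood test, Benjamini-Hochberg adjustment), with DESeq2 1.42.0 as an alternative. Python 3.11.15 and matplotlib 3.10.9 served for summaries and plots. All adjusted p-values are from edgeR. Ratios within pairs were taken between log2 CPM values to which a prior count of 2 had been added. A level of 0 allows 3 counts per culture, which covers counting error only. The method was run on simulated counts in which far fewer genes changed than were called here, and only genes with higher counts. It therefore does not check the scaling under a wide shift, or genes with low counts.

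Lists and genes were chosen with earlier results of these data known. The 227 named genes are the leads of each list, up to 2 extreme called members per list and direction with a mean of at least 1 CPM, the 10 largest folds per direction of called genes that averaged 10 CPM or more with groups apart, and the 10 largest gains and losses in CPM; a few genes that meet this rule are not reported here.

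The deviations of cultures from their group mean, compared by shared number, gave r of 0.284, 0.382, 0.614 and 0.186 across genes, against -0.492 to 0.265 for unlike numbers, and the numbers, which come from the labels, were taken to pair the cultures. Alternatives were a replicate block, other scalings, filters, thresholds and tools, and each culture left out in turn.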

Additional observations from a re-analysis of the deposited data

Results flagged for a closer look

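In 411 groups of 4 cultures, 29 had a culture whose gap to the nearest other culture took up nearly the whole range of the group. Chance flags about 1 in 20 groups, and no cause was tested. All values are CPM of the culture that stood apart.

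Non-senescent replicate 3 was high for Cdkn2b at 37.1, Cyc1 at 292, Atp5o at 340.5, Sdf2l1 at 69.8 and Eno1 at 2559, and low for Bcl2 at 14.5 and Cdh2 at 161. Senescent replicate 3 was high for Bcl2l1 at 384, Igfbp7 at 1833, Areg at 3.0, Acaa2 at 60.7 and Atp5o at 134, and low for Rrm2 at 14.4, Tnc at 941 and Pclaf at 1.65. Atp5o, a subunit of ATP synthase, was thus flagged in replicate 3 of both groups.

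Non-senescent replicate 4 was low for the replication and chromatin genes Pcna at 133, Tk1 at 45.2 and Asf1b at 18.6, and for Trp53 at 112 and Vim at 1213. It was high for Ppargc1a at 38.2, Cspg4 at 183, Plcd4 at 1.81 and App at 2647. Non-senescent replicate 2 was low for Cxcl1 at 35.4 and high for Cxcl5 at 4.3. Non-senescent replicate 1 was low for Dhx58 at 0.707. Senescent replicate 4 was low for Hmgb2 at 6.05 and Nlrc5 at 5.39.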

How the results depend on the processing

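Higher and lower counts were recomputed under each alternative. The replicate block gave 3583 higher and 3293 lower genes, of which 3081 and 2983 were also called without it, and among the named genes it changed no call other than the 8 given with their values in the report. A threshold of 1 on the absolute log2 fold change gave 2067 higher and 1686 lower genes, by its own construction. Leaving out each culture in turn gave from 2632 to 3377 higher and from 2369 to 3220 lower genes. RLE scaling, library totals, DESeq2 and other filters on low counts kept both counts within 1.5 times. Among the named genes, 8 lost their call without a filter and 2 with library totals. DESeq2 and the fit without a filter, which both test more genes, moved the medians of 6 lists by more than the spread between pairs without a change of sign. These were the BCL2 family, chemokines, interferons and their receptors, complement (0.577 and 0.572 against 1.104), ligands of T and NK cells, and gluconeogenesis and fructose metabolism. A minimum of 1 CPM in 4 samples moved 3, nucleic acid sensing, ligands of T and NK cells and mesenchymal genes, and leaving out replicate 3 of both groups moved the BCL2 family and the loop of Henle. Without non-senescent replicate 4 folds moved by over 1.5 times with the direction kept, on the log2 scale from -5.44 to -4.73 for Avpr2, from -4.77 to -4.0 for Slc12a1, from -5.43 to -4.32 for Slc3a1, from -2.71 to -1.85 for Cldn8, from -2.06 to -1.47 for Ppargc1a, from 2.83 to 3.44 for C4b, from 4.27 to 4.91 for Ltbp2 and from 3.36 to 5.27 for Nphs1. On the genes tested in the report, no scaling moved the median log2 fold change by over 0.1.

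The values that changed sign belong to genes and lists near 0, apart from 2 lists, and the cause was not tested. These 2 were leukocytes and ligands of T and NK cells, with median log2 fold changes of -0.449 and -0.367 in the main fit. For mitochondrial genes the median was -0.018 with the replicate block, -0.103 without a filter, -0.098 with DESeq2, -0.311 without replicate 3 of both groups and from -0.239 to 0.381 with a culture left out. Pecam1 was at 0.016 with the replicate block and 0.021 with library totals, and Lcn2 at -0.337 without replicate 3 of both groups. With a culture left out, median log2 fold changes ran from -0.337 to 0.052 for the BCL2 family, from -0.552 to 0.143 for ligands of T and NK cells, from -0.168 to 0.102 for ER stress and ATF4 and from -0.729 to 0.007 for leukocytes, and log2 fold changes from -0.545 to 0.221 for Igfbp3, from -0.085 to 0.298 for H2-K1, from -0.123 to 1.326 for Lrp2, from -0.362 to 0.396 for Lcn2, from -0.308 to 0.258 for mt-Co1 and from -0.495 to 0.442 for Pecam1.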
